A study of Mus musculus with 7 samples.

Results

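The proteasome genes described here were all protein-coding genes whose GENCODE M21 symbol starts with Psm, followed by a letter from a to g and a digit, apart from the 3 immunoproteasome subunits Psmb8, Psmb9 and Psmb10. The rule used names only and found 47 of the 45706 genes in the tables. By role they were 8 genes of the alpha ring, 8 of the beta ring, 6 base ATPases, 11 other subunits of the base and lid, 6 activators and inhibitors, 7 assembly factors, and Psmc3ip, which carries the name but codes for a recombination factor. RNA was sequenced from whole kidneys of 7 male mice aged 6 months, all of genotype Slc7a9-/-, which lack the transporter subunit that takes cystine back from the urine in the proximal tubule and serve as a model of cystinuria. The untreated group had 3 mice, and the other 4 mice were given L-ergothioneine, a thiol compound with antioxidant action that animals obtain from food, in the water at 16 mg/kg/day. No wild-type kidney was among them, so each value below compares treated with untreated mutants, and the labels give no litter, cage or duration of treatment.

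The proteasome is the protease that degrades proteins tagged with ubiquitin. Its core is a barrel of stacked rings: outer alpha rings gate the entrance, and inner beta rings carry the catalytic subunits Psmb5, Psmb6 and Psmb7. A regulatory particle caps the barrel, with a base whose ATPases unfold the substrate and a lid that removes ubiquitin. The assembled complex holds its subunits in fixed proportion, and when proteasome activity falls short the transcription factor Nfe2l1 (NRF1) raises the subunit genes together through antioxidant response elements in their promoters. The related factor Nfe2l2 (NRF2), which responds to oxidants and electrophiles, binds similar elements, which is why the element was looked for in the members' promoters.

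The core of that element, TGACNNNGC on either strand, was searched in the 250 bases before the annotated start of each promoter (RefSeq, GRCm38.p6). Promoter sequences were at hand for 39 of the 47 genes, 42 promoters in all, and 5 of the 42 (11.9%) held the core, against 10.2% of all 32851 promoters. Psmb7, the other catalytic gene, had no promoter sequence at hand and was not searched. The 5 matches are printed 5′ to 3′ on the strand of the gene, with the core in capitals (read on the opposite strand in Psmc6 and Psmd12), because they include both Psmb5 and Psmb6.

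Psmb5, chr14:54618024-54618052, minus strand: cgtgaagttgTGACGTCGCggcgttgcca
Psmb6, chr11:70525338-70525356, plus strand: ctaaagagagTGACGGAGC
Psmc6, chr14:45329587-45329615, plus strand: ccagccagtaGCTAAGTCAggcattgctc
Psmd9, chr5:123228149-123228177, plus strand: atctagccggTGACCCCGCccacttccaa
Psmd12, chr11:107479278-107479299, plus strand: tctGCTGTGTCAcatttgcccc

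The core lay 47 bases before the start in Psmb5, 9 in Psmb6, 31 in Psmd9, 227 in Psmc6 and 247 in Psmd12. The CCAAT box, a general promoter element (CCAAT on either strand), was in 14 of the 42 member promoters (33.3%) and in 33.8% of all promoters. Neither set of letters was therefore much more frequent in these promoters than elsewhere, and a match is a description of the letters only.

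The 7 libraries held 14843899 to 19791575 counts. The tissue label fitted the markers: those of proximal tubule, thick ascending limb, collecting duct and podocytes were present in every library. The library names in the labels carry a number, 44 to 50 in untreated 1, untreated 2 and treated 1 and 14 to 23 in the others, and the labels do not say what it marks. Slc7a9 itself had 95 to 105 counts untreated (5.55 to 6.73 CPM) and 103 to 166 treated (5.62 to 9.47 CPM). Short non-coding RNA took 12.2% and 16.2% of TPM in untreated 1 and 2, 48.7% in untreated 3 and 37.5% to 48.5% in the treated libraries. Markers of other cells moved with the groups: all 4 adipocyte markers (Adipoq, Plin1, Ucp1, Cidea) fell, from a summed 24.9 to 38.1 CPM untreated to 0.284 to 2.80 treated, with Ucp1 at 0 in treated 1 and Cidea at 0 in treated 1 and 3. The leukocyte marker Ptprc fell as well (log2 fold change -0.53, adjusted p = 0.0055), while Cd74 did not pass (-0.27, adjusted p = 0.111). The part of these cells and of the short RNA in the values below was not tested. In whole-kidney RNA, fewer cells of a type and less RNA per cell cannot be told apart.

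Proteasome transcripts differed little between treated and untreated kidneys, and most of the small differences were upward. Of 45 members with enough counts to test, 1 rose, Psmd11, and 0 fell (edgeR's quasi-likelihood test, Benjamini-Hochberg adjusted p under 0.05 over 15399 genes). Across all tested genes 7.16% passed, 3.58% higher and 3.57% lower, so the members' share of 2.22% was below the background. The log2 fold change was positive in 36 of the 45 members (80%) and in 49.3% of all genes, with medians of 0.06 and -0.003. At an unadjusted p under 0.05 there were 7 members, all higher (15.6%, against 20.8% of all genes in either direction), and DESeq2 and limma-voom also called Psmd11 alone. That call was lost in 6 of 7 fits with 1 library left out, with a replicate block and on rescaled TPM. Groups did not overlap in CPM (counts scaled to a common library size with TMM) for 7 members, all higher with ergothioneine: Psma5, Psmb5, Psmb6, Psmb7, Psmd2, Psmd6 and Psmd11. That is 15.6% of the members, where 9.46% of all genes had treated libraries all above untreated and 9.11% all below.

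The intervals limit how large a change could have been. For 35 of the 45 members the 95% interval of the fold change lay within 1.25-fold in either direction, as it did for 27 of the 31 tested subunits of the core and its cap. Over those 31 subunits the bounds ran from 0.789-fold to 1.29-fold. Members were measured more closely than most genes, with a median standard error of 0.073 on the log2 scale against 0.107 for all tested genes. Their level was also higher, with a median log2 CPM of 5.53 against 4.07, and genes of equal level were not compared.

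**Figure D1:**
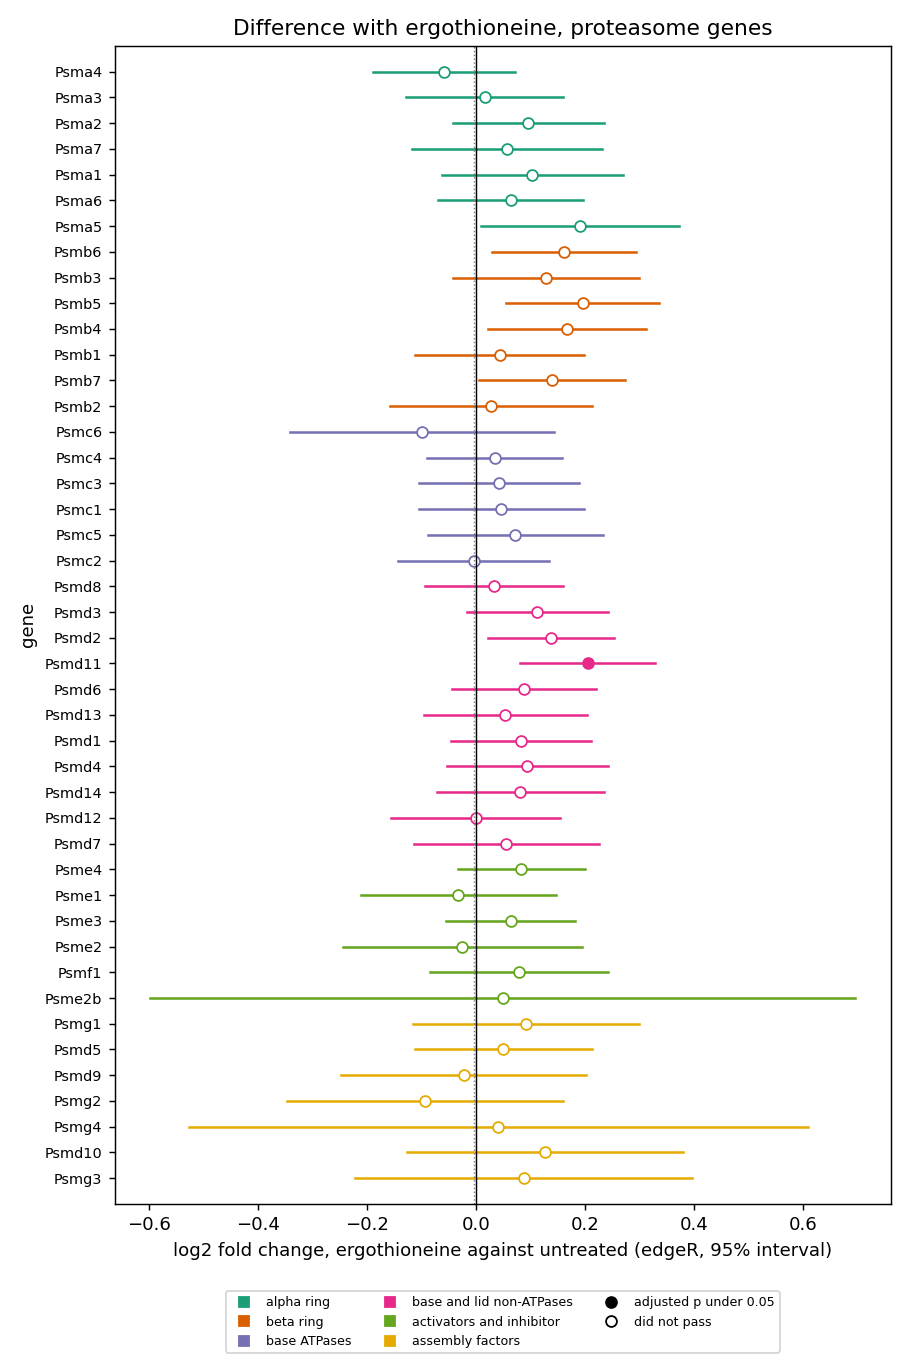
Log2 fold change of ergothioneine against untreated for 44 tested proteasome genes (edgeR; 3 untreated and 4 treated libraries), with 95% intervals, coloured by role; the dotted line is the median of all genes tested, and Psmc3ip is left out. Psmd11 is the 1 filled point, all 7 beta ring points lie above 0, and the intervals are widest for the low-count genes Psme2b and Psmg4.

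Summed over the 45 tested members, the level was 2326.2, 2316.3 and 2218.6 CPM in untreated 1 to 3 and 2383.6, 2411.5, 2430.7 and 2416.4 CPM in treated 1 to 4. The groups did not overlap, and the ratio of the means was 1.054. On TPM rescaled to protein-coding genes, which divides by transcript length and leaves the short RNA out, the ratio was 1.045. There the groups overlapped, with 3408, 3356 and 3566 untreated and 3346, 3698, 3627 and 3717 treated. This equalled 0.335% to 0.372% of all protein-coding TPM. On the deposited TPM, which includes the short RNA, the sum went the other way, at 2742, 2560 and 1695 untreated against 1745 to 1948 treated; the 2 high libraries were those with little short RNA. There the median over all tested genes moved to -0.31 and that of the members to -0.29, so the members lay beside the other genes.

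**Figure D2:**
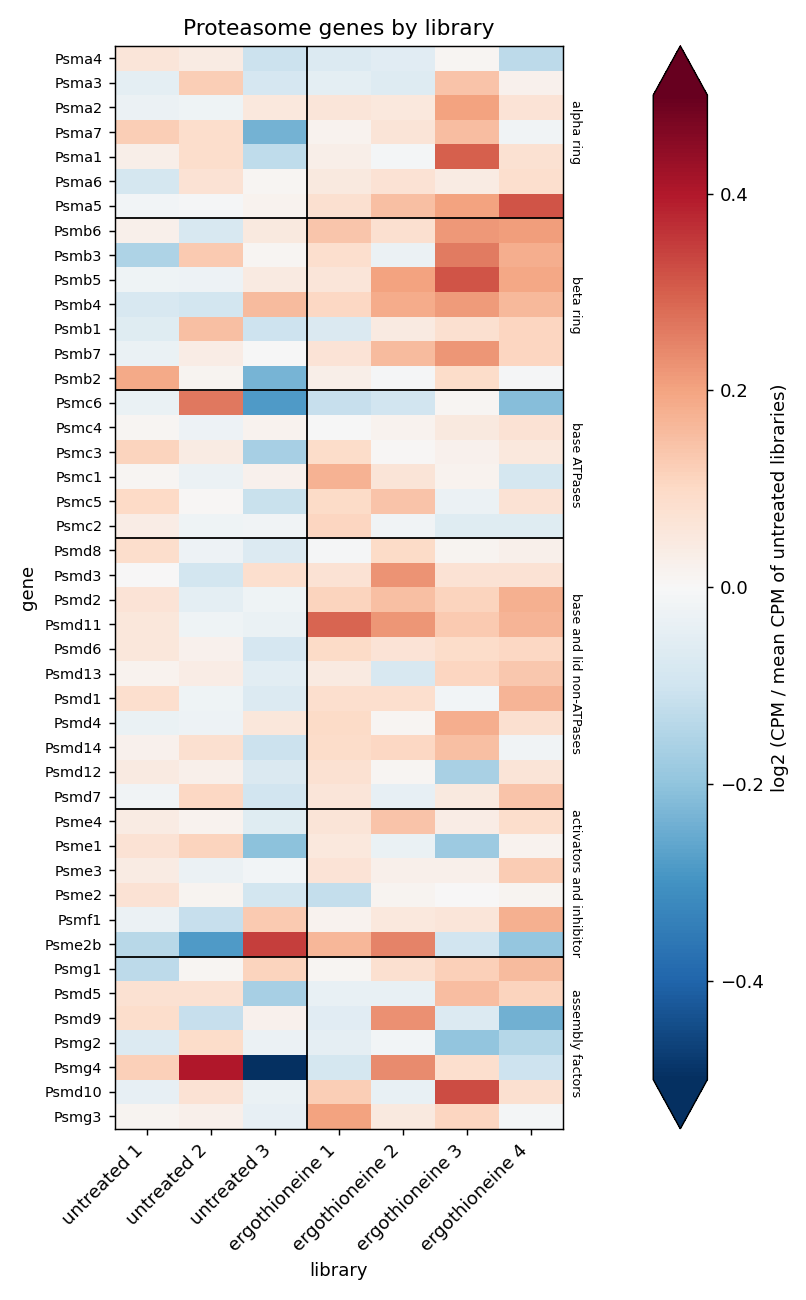
Level of 44 proteasome genes (rows, grouped by role and ordered by level per length) in each of the 7 libraries (columns), as log2 of CPM over the untreated mean; the vertical line divides untreated from ergothioneine libraries. Colours stop at 0.5 either way, which Psmg4 exceeds in untreated 3; the darkest red cells in the core lie in treated 3 and 4, and untreated 3 holds many of the blue cells.

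Libraries did not contribute evenly. Untreated 3 had the lowest CPM of all 7 libraries for 19 of the 45 members, while untreated 1 and 2 were lowest for 8 and 9. Treated 3 was highest for 13 members and treated 4 for 11. Without untreated 3, the number of members with a positive difference went from 36 to 29.

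The alpha ring gates the core. Per length (rescaled TPM, mean ± SD over 7 libraries), Psma4 was highest at 192 ± 11.8 and stood above Psma3 (172 ± 10.9) in 7 of 7 libraries, though their ranges overlapped. Psma2, Psma7, Psma1 and Psma6 followed between 121 and 110, each overlapping its neighbour. Psma5 was far lower at 35.1 ± 3.90, with no overlap with Psma6; the assembled ring holds all its subunits in equal number. Psma8, the testis form, had 1 to 6 counts per library and was not tested. Of the 7 tested members 6 had positive differences, 1 reached an unadjusted p under 0.05 and 0 passed. Psma5 had the largest, at 18.1, 18.2 and 18.5 CPM untreated and 19.3, 20.3, 21 and 22.7 treated (log2 fold change 0.19, SE 0.086, adjusted p = 0.212); every treated library lay above every untreated one. Psma4 was the only alpha member with a negative difference, at 83.7, 82.5 and 74.5 CPM untreated and 73.3 to 80.8 treated (-0.06, SE 0.062, adjusted p = 0.656). Both genes, with Psma3, Psmb3 and Psmd1, had counts that were not whole in 3 or more libraries, as an estimate gives when reads are divided between genes; the other 42 members had whole counts throughout (within 0.001).

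The beta ring holds the active sites and showed the most uniform differences: 7 of 7 tested members were positive and 4 reached an unadjusted p under 0.05, yet 0 passed after adjustment. Over all tested genes 49.3% were positive and 20.8% reached that p in either direction. The summed level of the beta ring was 346.5, 357.5 and 357.1 CPM untreated and 370.2, 380.1, 409.5 and 392.8 treated, a ratio of 1.10 with no overlap between groups. On rescaled TPM the groups overlapped, at 937.8, 945.2 and 1043.7 untreated and 963, 1064.8, 1097.0 and 1114.9 treated. Whether the beta ring differs from the other classes was not tested. Psmb5, the chymotrypsin-like subunit, had 58.1, 58.0 and 60.9 CPM untreated and 61.5, 67.8, 73.3 and 67.5 treated (log2 fold change 0.20, SE 0.067, adjusted p = 0.0895). Psmb6, the caspase-like subunit, had 60.5, 56.3 and 61.5 CPM untreated and 65.4, 62.8, 69.0 and 68.7 treated (0.16, SE 0.063, adjusted p = 0.140). Psmb7, the trypsin-like subunit, had 45.9, 48.2 and 46.9 CPM untreated and 49.3, 52.5, 54.8 and 50.7 treated (0.14, SE 0.063, adjusted p = 0.214). In each of the 3 catalytic genes the lowest treated library exceeded the highest untreated one in CPM, by little, as in 9.46% of all tested genes. On rescaled TPM the groups overlapped in all 3 catalytic genes. None of them passed in any of the 7 fits that left out 1 library, where the adjusted p of Psmb5 ran from 0.0599 to 0.208. The non-catalytic Psmb4 stood at 56.7, 56.2 and 66.8 CPM untreated and 64.4 to 69.4 treated (0.17, adjusted p = 0.169); untreated 3 lay within the treated range, and without it Psmb4 passed (adjusted p = 0.0346).

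Per length, Psmb6 led the beta ring and all members at 216.5 ± 17.8, followed by Psmb3 and Psmb5 at 186 ± 18.3 and 186 ± 19.8, whose ranges overlapped with it. Psmb5 stood above Psmb4 (129 ± 13.4) without overlap, and Psmb2 was lowest of the tested members at 88.5 ± 5.88. Psmb11, the thymus-specific catalytic subunit, had 0 counts in all 7 libraries.

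**Figure D3:**
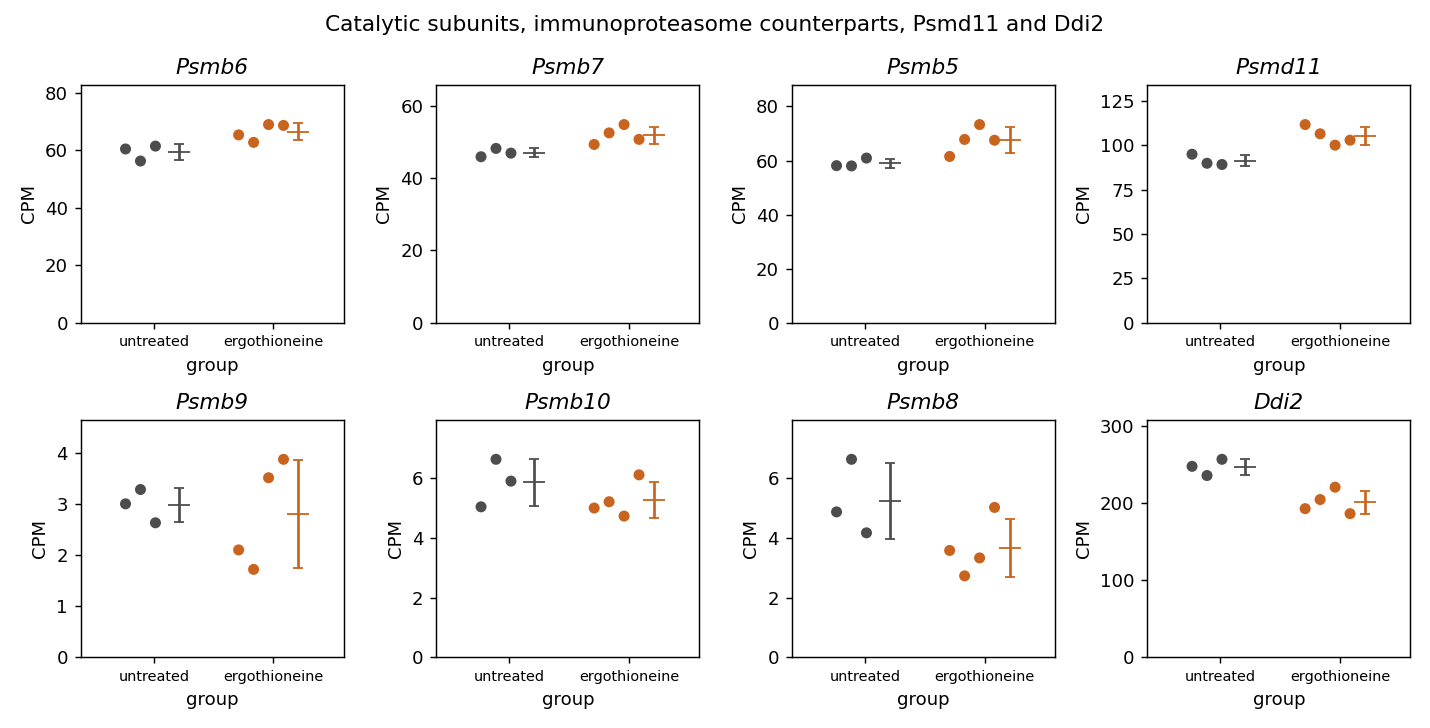
CPM in each library (points), with mean and SD (bars), for the catalytic subunits Psmb6, Psmb7 and Psmb5 above their immunoproteasome counterparts Psmb9, Psmb10 and Psmb8, and for Psmd11 and Ddi2; 3 untreated and 4 ergothioneine libraries, axes starting at 0. The treated points lie just above the untreated ones in the 3 catalytic genes and Psmd11, overlap with them in the immunoproteasome genes, and lie below them in Ddi2.

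The base ATPases unfold substrates and thread them into the core. Their summed level overlapped between groups, at 302, 308 and 275 CPM untreated and 304, 296, 296 and 287 treated, a ratio of 1.00. The median log2 fold change was 0.04, with 4 of 6 differences positive, 0 past the test and 0 at an unadjusted p under 0.05. Psmc6 had the largest difference and the highest level per length (88.1 ± 8.55), but its untreated libraries spread from 57.1 to 83.3 CPM around treated ones at 59.9 to 69.9 (-0.10, SE 0.110, adjusted p = 0.683). Its sign turned without untreated 2 (0.05), and without untreated 3 it was -0.22. Psmc4 and Psmc3 lay close behind it in level, with overlapping ranges, and Psmc1, Psmc5 and Psmc2 formed a lower step between 54.5 and 49.8. Psmc2, the lowest, was level between groups at 47.3, 45.4 and 45.6 CPM untreated and 44.2 to 49.7 treated (0.00, SE 0.066).

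The other subunits of the base and lid recognise and remove ubiquitin and hold the lid together. Here 10 of 11 differences were positive, 2 reached an unadjusted p under 0.05 (Psmd11 and Psmd2) and 1 passed. Their summed level was 738.8, 705.8 and 702 CPM untreated and 769.1, 776.9, 750 and 774.9 treated, a ratio of 1.07 with no overlap. On rescaled TPM the sums overlapped, at 755, 717.6 and 786.7 untreated and 765.5 to 851.3 treated. Psmd11, also called Rpn6, is a lid subunit that clamps the cap to the core; the gene lies at chr11:80428615-80473248 on the plus strand. It had 94.9, 89.8 and 89.1 CPM untreated and 111.6, 106.4, 100 and 102.8 treated. All 4 treated libraries stood above all 3 untreated ones, a 1.15-fold difference (log2 0.20, SE 0.058, 95% interval 0.08 to 0.33, adjusted p = 0.0425). The call depended on single libraries, though the log2 fold change ran only from 0.18 to 0.24 with 1 library left out. The call remained without treated 3 (adjusted p = 0.0367) and was lost without any 1 of the other 6 (0.0562 to 0.138). It was also lost with a replicate block (0.22, adjusted p = 0.082), where treated 4 has no untreated partner and adds nothing to the difference. On rescaled TPM, where 2.08% of all genes were called, Psmd11 did not pass either (0.18, adjusted p = 0.342). On the deposited TPM, where all 45 members were negative, the difference was -0.18 (adjusted p = 0.463).

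Psmd2, a scaffold of the base on which ubiquitin carriers dock, had 119, 110 and 111.9 CPM untreated and 122.7 to 128.4 treated (0.14, SE 0.055, adjusted p = 0.150), again without overlap. Psmd14, the deubiquitinase of the lid, differed by 0.08 (adjusted p = 0.598), and the ubiquitin receptor Psmd4 by 0.09 (adjusted p = 0.506). Per length, Psmd8 (119 ± 7.46) and Psmd3 (111 ± 11.9) led with overlapping ranges, Psmd3 stood above Psmd2 without overlap, and Psmd7 was lowest at 32.1 ± 1.78. On the rescaled TPM scale the groups did not overlap for Psmd11, Psmd13 and Psmd14 (higher) and for Psma4 (lower), 3 and 1 of the 45 tested members, where 6.26% of all tested protein-coding genes were higher and 6.42% lower in this way.

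**Figure D4:**
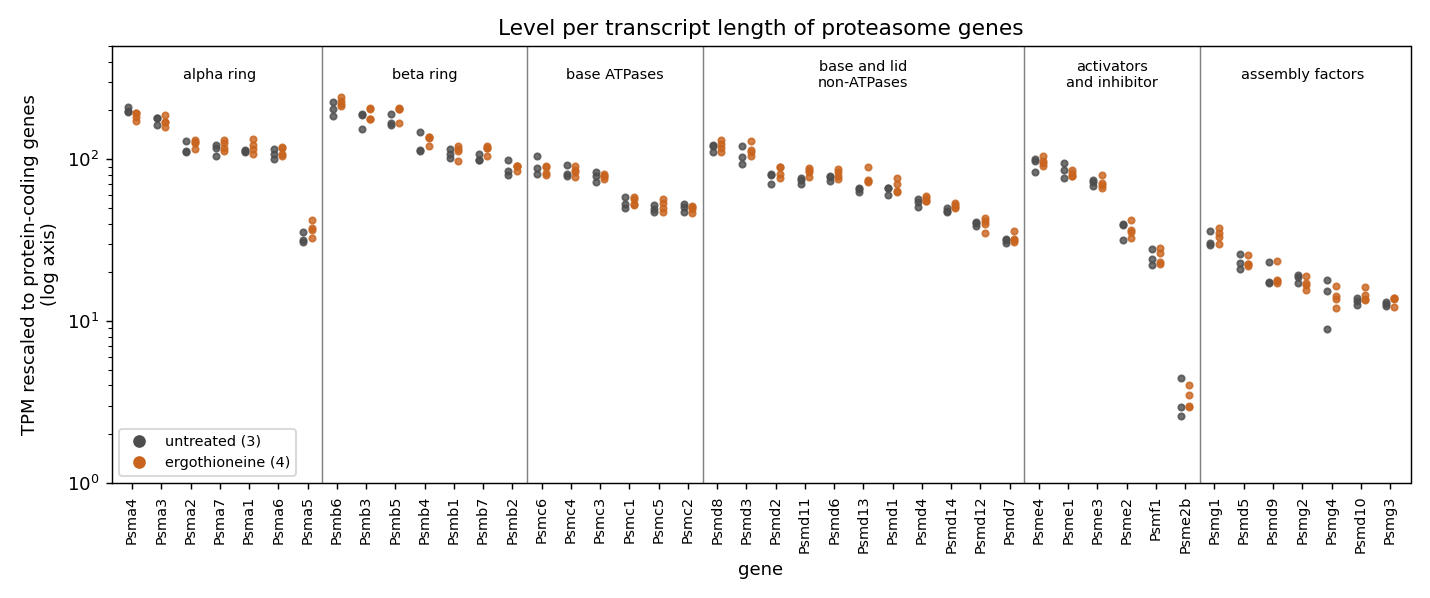
Level per transcript length (TPM rescaled to protein-coding genes, log axis) of 44 proteasome genes in each library, grouped by role; grey points are the 3 untreated and orange points the 4 ergothioneine libraries, and Psma8, Psmb11 and Psmc3ip are left out. Most alpha and beta ring genes lie near or above 100 and the cap subunits between about 30 and 130, while Psma5 stands apart from its ring and the assembly factors lie near 15 to 35.

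The median level per length over a class, averaged over the 7 libraries, was 119 for the alpha ring (range 112 to 131), 129 for the beta ring (113 to 146), 66.1 for the ATPases (64.0 to 68.4) and 71.7 for the other subunits of the cap (65.5 to 83.0). The ranges of the core classes did not meet those of the cap, so the core medians were higher in every library. The median was 54.1 for activators and inhibitor and 17.6 for assembly factors.

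Activators open the core without ubiquitin recognition, and Psmf1 is described as an inhibitor. In this class 0 of 6 passed and 4 were positive, with none at an unadjusted p under 0.05. Psme4, the nuclear activator PA200, had the highest level per length at 95.5 ± 6.53 and the largest difference, with 289.4, 284.2 and 269.6 CPM untreated and 294.3, 309.9, 288.4 and 298.4 treated (0.08, SE 0.055, adjusted p = 0.439). The interferon-induced pair Psme1 and Psme2 differed by -0.03 each (adjusted p = 0.886 and 0.934). Psme2b, a copy of Psme2, was lowest with 13 to 25 counts per library, and it shares its whole length and strand with another gene model, so its level is uncertain.

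Assembly factors are chaperones that build the rings and the base and leave the finished complex. All 7 were tested, 0 passed, and 5 were positive, again with none at an unadjusted p under 0.05. Psmg1 was highest per length at 33.0 ± 3.22, above Psmd5 without overlap, and Psmg3 lowest at 13.1 ± 0.689. The largest difference was in Psmd10 (gankyrin), at 8.67, 9.38 and 8.72 CPM untreated and 8.70 to 11.2 treated (0.13, SE 0.120, adjusted p = 0.619), with overlapping groups. At these lower levels the standard errors were larger, with a median of 0.120, and a change of 1.25-fold would be harder to see than in the core. Psmc3ip, the gene matched by name only, had 3 to 18 counts per library (-0.14, SE 0.466).

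The immunoproteasome subunits, left out of the members, replace the 3 catalytic subunits in immune cells and under interferon. They lay far below their constitutive partners: Psmb8 made up 3.14% to 7.27% of the summed rescaled TPM of the Psmb8 and Psmb5 pair, Psmb9 1.11% to 2.79% of its pair with Psmb6, and Psmb10 6.39% to 9.95% of its pair with Psmb7. Psmb8 had 4.87, 6.63 and 4.17 CPM untreated and 3.58, 2.73, 3.33 and 5.02 treated (log2 fold change -0.51, SE 0.215, adjusted p = 0.178). The difference was -0.31 without untreated 2, and Psmb8 passed in 0 of 7 fits with 1 library left out. Psmb9 (-0.09, SE 0.263, adjusted p = 0.899) and Psmb10 (-0.15, SE 0.156, adjusted p = 0.658) overlapped between groups as well. The leukocyte marker Ptprc stood at 23.4, 26.8 and 29.4 CPM untreated and 17.8, 15.5, 19.2 and 21.1 treated; its part in the Psmb8 values was not tested.

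Of 39 other genes of the pathway, 38 were tested: 0 rose and 3 fell, Ddi2 and Syvn1 among them; over all tested genes 3.58% rose and 3.57% fell. Ddi1 had no counts to test. At an unadjusted p under 0.05 there were 7 of the 38, 1 with a positive difference and the rest with negative ones. Over all tested genes 20.8% reached it in either direction. DESeq2 called the same 3 genes as lower. The median difference was -0.01, close to that of all genes.

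Ddi2 and Syvn1 belong to the 8 tested regulators of proteasome genes. Ddi2 is the protease that cuts Nfe2l1 into its active form. It had 247.5, 235.6 and 256.6 CPM untreated and 192.7, 204.5, 220.5 and 186.2 treated (0.815-fold, log2 -0.30, SE 0.063, adjusted p = 0.0078). Every treated library lay below every untreated one, and the call held in 7 of 7 fits with 1 library left out. Ddi2 shares 1749 bp on the same strand with Rsc1a1, so some of its reads may belong to that gene.

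Syvn1 is the ubiquitin ligase of the endoplasmic reticulum that turns over Nfe2l1 and other client proteins. It had 47.5, 62.7 and 64.0 CPM untreated and 42.9, 39.9, 44.2 and 44.6 treated (0.740-fold, log2 -0.43, SE 0.092, adjusted p = 0.0098). The groups did not overlap, untreated 1 was closest to the treated libraries, and the call held in 7 of 7 fits with 1 library left out.

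On TPM rescaled to protein-coding genes 0 of the 38 passed, with Ddi2 at -0.27 (adjusted p = 0.187) and Syvn1 at -0.44 (adjusted p = 0.0988). That fit called 2.08% of 13560 genes, against 7.16% in the main fit, so few calls could be looked for among the 38. Within the high range of library numbers (2 untreated against 1 treated) and the low range (1 untreated against 3 treated) the differences were 0.27 and 0.21 for Psmd11, -0.33 and -0.33 for Ddi2 and -0.36 and -0.58 for Syvn1 on the log2 scale, as values only, since each range leaves a group of 1 library.

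**Figure D5:**
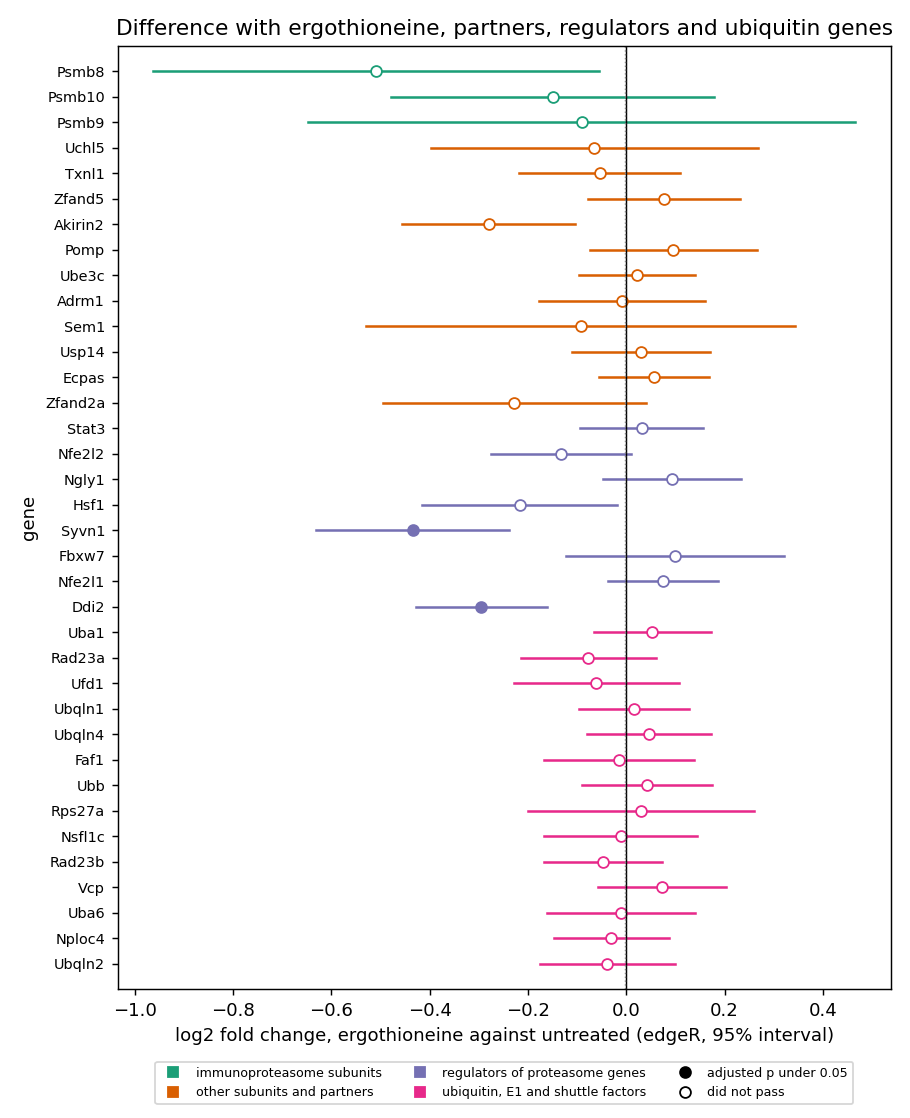
Log2 fold change of ergothioneine against untreated for 36 of the other tested genes of the pathway (edgeR, 95% intervals), coloured by list; filled points passed the test. Ddi2 and Syvn1 are the 2 filled points, both below 0, and Psmb8 has the largest difference with one of the widest intervals.

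The transcription factors themselves did not pass. Nfe2l1 had 202.6, 199.1 and 198.9 CPM untreated and 216.4, 217.5, 205.4 and 204.2 treated (0.07, SE 0.053, adjusted p = 0.483), with no overlap. Nfe2l2 had 99.8, 104.5 and 109.6 CPM untreated and 100.1, 87.4, 104.4 and 89.9 treated (-0.13, SE 0.068, adjusted p = 0.283). Pomp, the chaperone that matures the core, had 39.4, 43.4 and 35.9 CPM untreated and 40.7, 39.3, 47.2 and 42.0 treated (0.10, SE 0.080, adjusted p = 0.571). Of the 11 other subunits and partners 0 passed; Akirin2, which carries proteasomes into the nucleus, came closest with 33.0, 33.0 and 32.4 CPM untreated and 27.6, 30.9, 24.8 and 24.8 treated (-0.28, SE 0.084, adjusted p = 0.0522). It was called lower with library totals, with no filter, among protein-coding genes only, without treated 2 and on both deposited TPM scales.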

How the data were processed

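RNA from 7 kidneys was depleted of ribosomal RNA and made into stranded libraries, per the labels' protocols. The authors deposited expected counts per gene, estimates that need not be whole, and TPM, which divides by transcript length and sums to a fixed total in each library. The submitters' processing notes name STAR 2.7.10a, RSEM 1.3.1, Salmon 1.10.1, Trim Galore 0.6.7 and other tools with the builds GRCm38 and mm10. No source used here gives the annotation release or the strand setting, so reads of overlapping genes may be shared. Symbols came from GENCODE M21 (GRCm38), which named 45143 of 45706 identifiers. Columns matched the library names in the labels.

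Deposited expected counts were rounded. In R 4.3.3, edgeR 4.0.16 kept 15399 genes (filterByExpr) and ran its robust quasi-likelihood F test with TMM scaling and Benjamini-Hochberg adjustment over them, at a threshold of 0.05. Each standard error is the absolute log2 fold change over the square root of F, and intervals cover 95%. The deposited TPM of protein-coding genes was rescaled to a common sum for levels per length. Libraries of a group differed by 7.48 to 25.4 times their sampling noise (chi-square per degree of freedom), so none was a copy. P-values set each difference against the spread among these 7 mice, with each gene's spread drawn toward that of the other genes. They rest on these 7 mice only. Motifs were searched on both strands of RefSeq promoters (GRCm38.p6), and overlapping matches were allowed.

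The members and lists were chosen with earlier results of these data known. Genes named with their values were the member past the threshold, the 3 catalytic subunits, the highest, lowest and most different member of each class, other pathway genes past the threshold, and Nfe2l1, Pomp, Psmb8, Psmb9 and Psmb10; the rest were named after their values were seen. Of 40 listed pathway symbols, Paaf1 was not matched, and 2 that were tested and counted are not reported here. Alternatives were DESeq2 1.42.0, limma-voom and limma-trend (limma 3.58.1, log2 of TPM plus 1 or 0.1), other scalings and filters, a replicate block, a term for the range of the number in the library names, and each library left out. Leaving out untreated 1 and 2 and fitting within the ranges of that number were added after seeing the data.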

Additional observations from a re-analysis of the deposited data

How the results depend on the processing

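The count of members called higher was 1. It was 0 with a replicate block (Psmd11 adjusted p = 0.082), on log2(TPM + 1), on log2(TPM + 0.1), on TPM rescaled to protein-coding genes, without untreated 1 and 2, and within the high or the low range of library numbers (each with a group of 1 library, whose spread is assumed to be that of the others), and 2 at an adjusted p under 0.1 (Psmd11 and Psmb5). It ran from 0 to 1 with 1 library left out. The member called without untreated 3 was Psmb4. No member was called lower in any setting tried. DESeq2, limma-voom, the other scalings and filters and the term for library numbers gave 1, always Psmd11.

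The median over members, 0.06, became -0.29 and -0.31 on the deposited TPM scales (pseudocount 1 and 0.1) and 0.12 both without untreated 1 and 2 and within the low range of library numbers, and ran from 0.05 to 0.08 with 1 library left out. On those TPM scales the median of all genes was -0.31 and -0.37, 0 of 45 members were positive, and Psmd11 stood at -0.18 and -0.19 and Pomp at -0.59 and -0.60 (adjusted p = 0.0414 and 0.0406). The ratio of summed levels was 1.054 in CPM and 1.045 in rescaled TPM. Of other pathway genes, 3 were lower; 7 were on both deposited TPM scales, 0 on rescaled TPM and within the high range, 1 within the low one, 4 with library totals, with no filter, with protein-coding genes only and at an adjusted p under 0.1 (Akirin2 added), and 2 to 3 with 1 library left out. At an adjusted p under 0.1, 1 was higher.

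All genes called numbered 1102. They were 692 and 710 without treated 1 or treated 2, 556 without untreated 1 and 2, 398 and 425 within the high and low ranges, 282 on rescaled TPM and 1741 at an adjusted p under 0.1; on log2(TPM + 1), 54 were higher and 1484 lower, against 552 and 550. Of 529 values of the 23 genes named by the rule and tested, 444 kept their direction and side of the threshold, 25 lost their call, 3 gained one, 4 changed sign with a call in one setting (those of Psmd11 and Pomp above) and 53 changed sign with no call. The cause of these changes was not tested. Deviations of same-numbered mice correlated at 0.027, -0.068 and 0.003 over all tested genes, and the labels name no pairing. Such values cannot exclude a pairing that moved few genes. The replicate block called 809 genes, 2 of the 3 lower pathway genes among them. Depth limits the low genes: Psme2b and Psmg4 had standard errors of 0.307 and 0.269.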

Other observations

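Several members share a promoter region with a gene read in the opposite direction. By GENCODE M21, 8 of the 47 members (17.0%) start within 1000 bp of the start of a divergent protein-coding gene, against 1588 of 22028 protein-coding genes (7.21%). The pairs are Psma2 with Mrpl32 (75 bp apart), Psma7 with Ss18l1 (76 bp), Psmb1 with Tbp (137 bp), Psmc5 with Ftsj3 (75 bp), Psmc2 with Dnajc2 (32 bp), Psme2 with Rnf31 (595 bp), Psmg2 with Cep76 (263 bp) and Psmd10 with Atg4a (179 bp). Neither gene of any pair passed the test, and the partners' adjusted p ran from 0.327 to 0.991. In 5 of the 8 pairs the member and its partner had differences of opposite sign.

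The members lie on 16 chromosomes. Chromosome 11 holds 10 of them, Psmb6, Psmd11 and Psme4 included, and chromosomes 2 and 14 hold 6 each, Psmb5, Psme1 and Psme2 among those on 14.

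Dixon's test for a stray value was run on 24 groups of 4 treated libraries. These were the tested genes named by the rule and the summed member level. The test singled out no library, but with 4 values only a very distant one would be singled out. The untreated groups were not checked in this way, so the result does not bear on untreated 3.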
